A study of Arabidopsis thaliana with 12 samples.

Results

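The 10 genes described here encode ATG3 and members of the ATG8 family of Arabidopsis thaliana, parts of the machinery of autophagy. They were taken by gene symbol: each probe set whose single annotated symbol is ATG3, or starts with ATG8 or APG8, was a member. This gave 10 probe sets for 10 genes out of the 13356 genes named on the array, 9 of the ATG8 family and ATG3 itself. Their identifiers are AT4G21980 (listed as APG8A, also called ATG8A), AT4G04620 (ATG8B), AT1G62040 (ATG8C), AT2G05630 (ATG8D), AT2G45170 (ATG8E), AT4G16520 (ATG8F), AT3G60640 (ATG8G), AT3G06420 (ATG8H), AT3G15580 (listed as APG8H, also called ATG8I) and AT5G61500 (ATG3).

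Expression was measured in whole seedlings, 10 days old, with 12 one-colour arrays and 1 array per biological replicate. The 4 groups of 3 replicates came from Columbia wild type seedlings (WT) and from pft1-1, a mutant in the same background, each grown at 16C and at 23C on MS salts agar under continuous light of 80 micromoles per second and square metre. The mutant carries a lesion in PFT1, the MED25 subunit of Mediator, the complex that connects transcription factors with RNA polymerase. The series concerns how PFT1 promotes flowering. It holds a single mutant line, so an effect of PFT1 and other differences between the lines cannot be told apart.

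Autophagy encloses cytoplasmic material in vesicles, the autophagosomes, and delivers it to the vacuole, where it is broken down and recycled. ATG8 is a small ubiquitin-like protein that is attached to a membrane lipid and marks the growing vesicle. The protease ATG4 first trims ATG8 to a C-terminal glycine, ATG7 activates it, and ATG3 transfers it to phosphatidylethanolamine. Plants carry several ATG8 genes, and ATG8H and the gene listed as APG8H encode forms that already end at this glycine. Autophagy is known in Arabidopsis for its part in nutrient recycling, senescence and tolerance of starvation.

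All values are on the log2 scale, where a difference of 1 is a doubling. The 120 values of the members ran from 5.26 to 11.2, and all lay above 2.52, the lower quartile of all values. Signals of different probe sets are not comparable as amounts of RNA, so each gene is compared with itself across groups. Each group has a replicate A, B and C, and the 4 arrays of letter C stood apart. Their spike-in probe sets (poly-A controls) had mean log2 values of 4.57 to 8.72, against 2.45 to 2.54 for the other 8 arrays. The 3' minus 5' log2 difference of control transcripts, which grows as RNA or its labelling degrades, was 2.15 to 3.16 with letter C and 1.39 to 1.79 otherwise. Each group holds 1 array of letter C. Of the tissue markers, the shoot gene RCA stood between 14.3 and 14.8 on all arrays, and 1 of 7 listed green shoot genes and 2 of 7 root genes had a named probe set.

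ATG8B was the member with the clearest difference between growth temperatures. In WT its log2 values were 5.85, 5.58 and 6.15 at 16C (replicates A, B and C) and 7.80, 6.79 and 7.40 at 23C. In pft1-1 they were 6.45, 6.02 and 6.39 at 16C and 7.78, 7.35 and 8.77 at 23C. All 6 arrays at 23C thus lay above all 6 arrays at 16C, and the 2 temperatures did not overlap in either genotype. Within a genotype the temperatures did not overlap for 26.0% of all probe sets in WT and 47.9% in pft1-1. The share for 6 arrays against 6 was not counted.

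The mean of ATG8B in WT was 5.86 ± 0.29 (SD, n = 3) at 16C and 7.33 ± 0.51 (SD, n = 3) at 23C. The log2 difference was 1.47 (SE 0.37), a factor of 2.77, and it did not pass the threshold over all probe sets (limma adjusted p = 0.0578). In pft1-1 ATG8B rose from 6.29 ± 0.24 (SD, n = 3) to 7.97 ± 0.73 (SD, n = 3), a log2 difference of 1.68 (SE 0.37), a factor of 3.21 (limma adjusted p = 0.0152). Averaged over both genotypes, 6 arrays against 6, ATG8B rose by 1.58 (SE 0.26, limma adjusted p = 0.0030). The 3' minus 5' control difference was higher at 23C by 0.35 in pft1-1, the largest of the 4 comparisons, and differed by -0.04 in WT. In letters A, B and C of pft1-1 it was 1.39, 1.47 and 2.15 at 16C and 1.47, 1.44 and 3.16 at 23C. The rise thus lay mainly in letter C, and its part in the temperature differences of pft1-1 was not tested. A change larger than that of ATG8B was found in 3.35% of all probe sets in WT and in 5.31% in pft1-1.

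The ATG8B difference was positive in each replicate letter, as the lack of overlap between the temperatures already fixes for any matching of arrays. Between arrays of the same letter it was 1.95, 1.21 and 1.25 in WT and 1.33, 1.33 and 2.38 in pft1-1 (letters A, B and C). In both temperature comparisons deviations from group means of arrays sharing a letter correlated at 0.196 to 0.529, above the 0.1 taken as pairing. For genotype at 16C letter B gave -0.101, and the replicate block takes the letters as shared by all 4 groups. With this block ATG8B passed in WT (limma adjusted p = 0.0189) and in pft1-1 (limma adjusted p = 0.00540). With letter C left out the difference was 1.58 in WT (limma adjusted p = 0.112) and 1.33 in pft1-1 (limma adjusted p = 0.0968), so the call in pft1-1 was lost, while the average over both genotypes kept its call at 1.46 (limma adjusted p = 0.0262). The call in pft1-1 was also lost with only the 6 arrays of pft1-1 (limma adjusted p = 0.0548) and when the 16C array of letter B in pft1-1 was left out (limma adjusted p = 0.0516). In WT the call was gained without replicate B (limma adjusted p = 0.0481) or C (limma adjusted p = 0.0257) of pft1-1 at 23C. These arrays are not part of the WT comparison: its difference stayed at 1.47, and the SE fell to 0.328 and 0.275. With only the 6 arrays of WT it did not pass (limma adjusted p = 0.109).

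**Figure D1:**
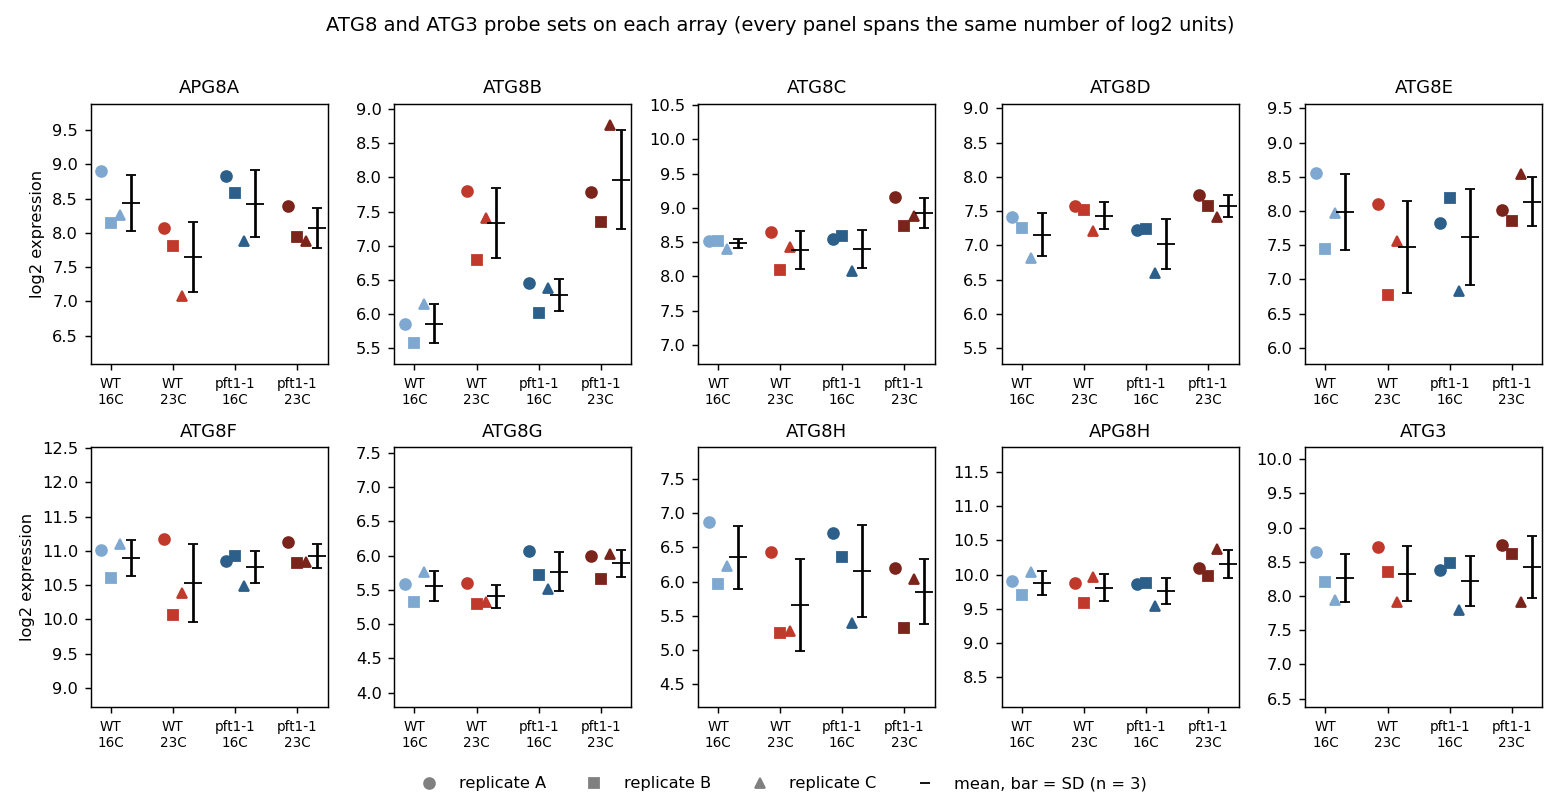
Log2 expression (vertical axis) of the 10 members on each of the 12 arrays, by group (horizontal axis), with symbols for replicates A, B and C and the group mean with its SD (n = 3) in black. All panels span the same number of log2 units, and ATG8B is the gene whose 6 arrays at 23C all lie above its 6 arrays at 16C.

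For the set of members in WT, 0 of 10 passed at 23C against 16C, beside 4.89% of all probe sets, and 2 had an unadjusted limma p under 0.05, beside 18.7%. The median difference of the members was -0.12 with 3 positive and 7 negative, while the median over all probe sets was 0.02 with 63.7% positive. In pft1-1 1 of 10 passed, beside 17.7% of all probe sets in either direction and 8.41% upward. There 8 members were positive and 2 negative with a median of 0.30, beside 0.04 and 62.9% positive over all probe sets. An unadjusted p under 0.05 was found for 4 members, beside 32.3%. With the letters as replicate block 2 members passed in WT, beside 8.17% of all probe sets, and 3 in pft1-1, beside 22.7%. With letter C left out 0 passed in WT, beside 2.11%, and 1 in pft1-1, beside 10.3%. Averaged over both genotypes 1 of 10 passed, beside 23.7% of all probe sets and 11.7% upward, and 3 had an unadjusted p under 0.05, beside 36.3%. The average gave 3 calls with the replicate block, beside 28.6%, and 2 with letter C left out, beside 19.0%. Since 1 member is 10% of the members, none of these counts stands as a result about the 10 genes as a set.

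APG8A, one of the ATG8 genes, averaged lower at 23C in WT. Its values in WT were 8.90, 8.15 and 8.25 at 16C and 8.06, 7.81 and 7.07 at 23C. In pft1-1 they were 8.83, 8.58 and 7.88 at 16C and 8.40, 7.94 and 7.87 at 23C. The WT groups did not overlap, as for 26.0% of all probe sets. Those of pft1-1 did overlap, and there replicate C at 16C was close to replicates B and C at 23C.

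The WT difference of APG8A was -0.79 (SE 0.34, limma adjusted p = 0.247), a factor of 0.580, and did not pass. With the letters as replicate block the same difference of -0.79 had an SE of 0.17 and passed (limma adjusted p = 0.0368), as letters A, B and C gave -0.83, -0.34 and -1.18. In pft1-1 the difference was -0.36 (SE 0.34, limma adjusted p = 0.479). Averaged over both genotypes it was -0.57 (SE 0.24, limma adjusted p = 0.116), and with the block it passed (limma adjusted p = 0.0119). Without letter C the WT difference was -0.59 (limma adjusted p = 0.373).

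ATG8C, ATG8D and APG8H averaged higher at 23C in pft1-1, each with groups that did not overlap there, as for 47.9% of all probe sets. ATG8C stood at 8.54, 8.59 and 8.08 at 16C and 9.16, 8.73 and 8.89 at 23C in pft1-1, and at 8.52, 8.52 and 8.40 at 16C and 8.65, 8.10 and 8.42 at 23C in WT. ATG8D stood at 7.22, 7.23 and 6.59 at 16C and 7.74, 7.58 and 7.42 at 23C in pft1-1, and at 7.41, 7.25 and 6.81 at 16C and 7.57, 7.51 and 7.21 at 23C in WT. APG8H, whose product ends at the exposed glycine, stood at 9.87, 9.88 and 9.54 at 16C and 10.10, 9.98 and 10.37 at 23C in pft1-1, and at 9.90, 9.70 and 10.04 at 16C and 9.88, 9.59 and 9.96 at 23C in WT. In WT the 2 temperatures overlapped for all 3 genes.

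The log2 difference between temperatures in pft1-1 was 0.52 (SE 0.18, limma adjusted p = 0.0725) for ATG8C. It was 0.56 (SE 0.21, limma adjusted p = 0.0996) for ATG8D and 0.39 (SE 0.15, limma adjusted p = 0.106) for APG8H. A change larger than that of ATG8C, ATG8D and APG8H was found in 31.9%, 29.8% and 40.5% of all probe sets. None of the 3 passed without a block, and the control difference of 0.35 named above, mainly from letter C, lies in the same comparison. With the letters as replicate block ATG8C (limma adjusted p = 0.0486) and ATG8D (limma adjusted p = 0.00642) passed and APG8H did not (limma adjusted p = 0.0965). ATG8D was positive in each letter in both genotypes, with 0.17, 0.27 and 0.41 in WT and 0.52, 0.34 and 0.82 in pft1-1, and its average over the genotypes of 0.42 (SE 0.15, limma adjusted p = 0.0715) passed with the block (limma adjusted p = 0.00339). Without letter C ATG8D passed in pft1-1 (0.43, limma adjusted p = 0.0422), and ATG8C did not (0.38, limma adjusted p = 0.358). Of the 10 members 2 did not overlap between temperatures in WT, beside 26.0% of all probe sets, and 4 in pft1-1, beside 47.9%.

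**Figure D2:**
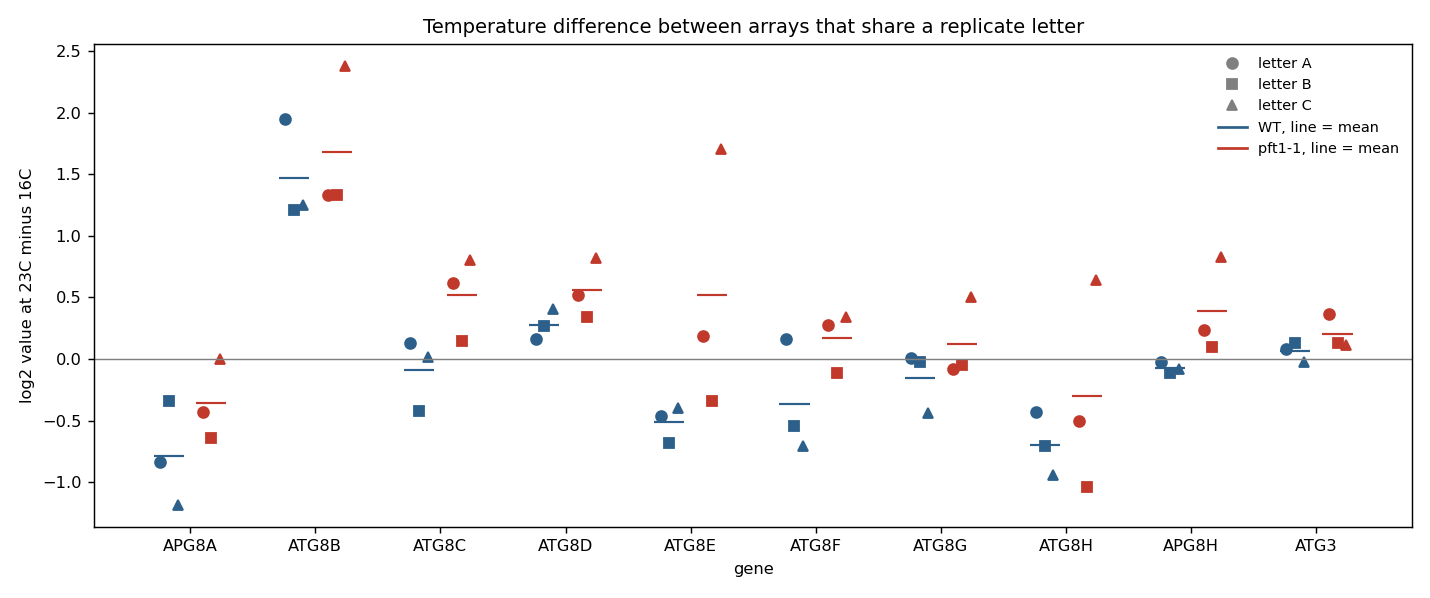
Log2 value at 23C minus 16C (vertical axis) between arrays that share a replicate letter, for each gene (horizontal axis), with WT in blue, pft1-1 in red, symbols for letters A, B and C and a line at the mean. ATG8B runs from 1.21 to 2.38, and its lack of overlap between temperatures fixes the positive sign in every letter. Letter C of pft1-1 gives the highest point for every gene except ATG3.

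ATG8E, ATG8F, ATG8G and ATG8H, 4 further genes of the family, had no call for temperature in either genotype, with or without the block. ATG8E stood at 8.56, 7.45 and 7.96 at 16C and 8.10, 6.77 and 7.57 at 23C in WT, and at 7.83, 8.19 and 6.83 at 16C and 8.01, 7.85 and 8.54 at 23C in pft1-1. ATG8H, the other form that ends at the glycine, stood at 6.87, 5.97 and 6.23 at 16C and 6.44, 5.26 and 5.28 at 23C in WT, and at 6.71, 6.36 and 5.40 at 16C and 6.21, 5.32 and 6.04 at 23C in pft1-1. Replicates were spread widely, with an SD of 0.70 for ATG8E and 0.68 for ATG8H in pft1-1 at 16C (n = 3), and the temperatures overlapped in both genotypes.

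The temperature difference of ATG8E was -0.51 (SE 0.45, limma adjusted p = 0.65) in WT and 0.52 (SE 0.45, limma adjusted p = 0.445) in pft1-1. In pft1-1 it came from letter C, at 1.71 beside 0.19 and -0.34 in letters A and B, and was -0.08 without letter C. ATG8H had -0.69 (SE 0.45, limma adjusted p = 0.492) in WT and -0.30 (SE 0.45, limma adjusted p = 0.656) in pft1-1.

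ATG8F ranged from 10.6 to 11.1 in WT at 16C, 10.1 to 11.2 in WT at 23C, 10.5 to 10.9 in pft1-1 at 16C and 10.8 to 11.1 in pft1-1 at 23C. ATG8G ranged from 5.32 to 5.76, 5.29 to 5.60, 5.52 to 6.07 and 5.66 to 6.02 in the same order. The temperature difference of ATG8F was -0.36 (SE 0.27) in WT and 0.17 (SE 0.27) in pft1-1, and that of ATG8G was -0.15 (SE 0.17) and 0.12 (SE 0.17). For both genes the temperatures overlapped in each genotype.

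ATG3, the enzyme that hands ATG8 to its lipid, had close means in the 4 groups. It stood at 8.64, 8.21 and 7.94 in WT at 16C, at 8.72, 8.34 and 7.91 in WT at 23C, at 8.38, 8.48 and 7.80 in pft1-1 at 16C and at 8.74, 8.61 and 7.91 in pft1-1 at 23C. The group means ran from 8.22 to 8.42, and the SDs from 0.36 to 0.45 (n = 3 each). The log2 difference between temperatures was 0.06 in WT (95% interval -0.63 to 0.75) and 0.20 in pft1-1 (95% interval -0.48 to 0.89). The temperatures overlapped in both genotypes.

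The spread of ATG3 followed the replicate letters. Its 4 arrays of letter C, at 7.80 to 7.94, lay below all 8 arrays of letters A and B, at 8.21 to 8.74, and 1.18% of all probe sets showed such a gap in this direction. For ATG3 and ATG8D letter C was the lowest replicate in all 4 groups, as it was for 5.77% of all probe sets. ATG8B was lowest in letter B in all 4 groups, and APG8A and ATG8H were highest in letter A in all 4. The shares of all probe sets with these patterns of letters A and B were not counted. The spike-in level and the 3' minus 5' control difference moved with letter C, as given above, and their part in these values was not tested.

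**Figure D3:**
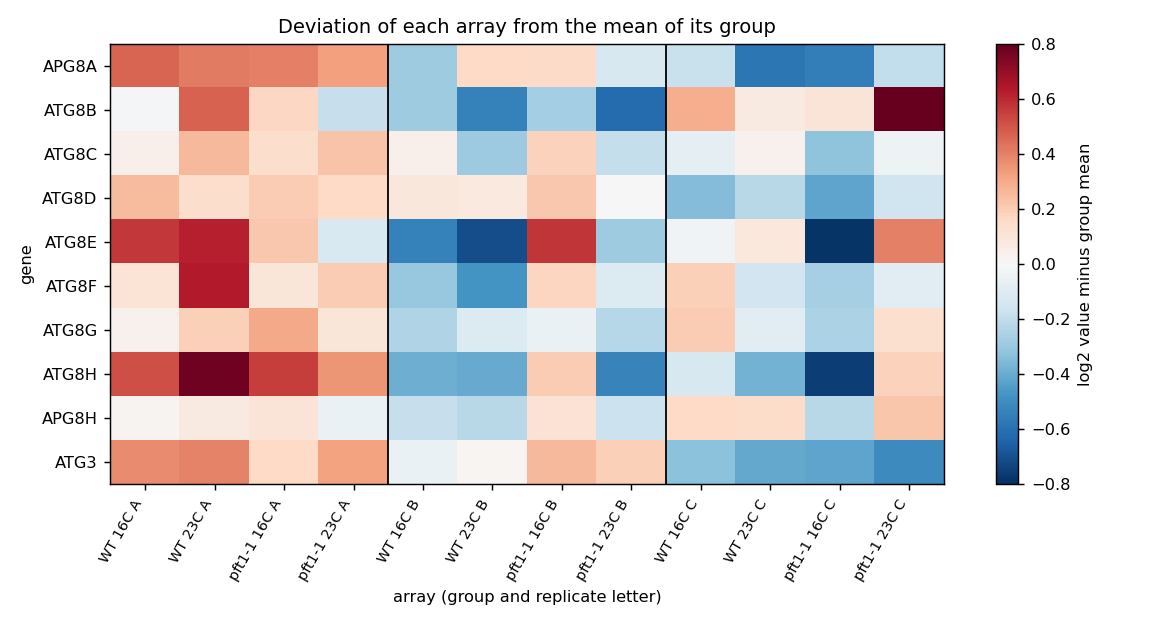
Deviation of each array from the mean of its group in log2 units (colour), for the 10 genes (rows) and the 12 arrays ordered by replicate letter (columns). The arrays of letter C are below their group mean in all 4 groups for APG8A, ATG3 and ATG8D. Letter A is above it in all 4 for APG8A, ATG3, ATG8C, ATG8D, ATG8F, ATG8G and ATG8H.

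The order of the 4 group means differed between genes. ATG8B was highest in pft1-1 at 23C, then in WT at 23C, pft1-1 at 16C and WT at 16C. ATG8C, ATG8D, ATG8E, ATG8F, ATG8G, APG8H and ATG3 also had their highest mean in pft1-1 at 23C, while APG8A and ATG8H had it in WT at 16C. Between neighbours in these orders the gap exceeded the larger SD in 4 of 30 cases. For ATG8B these were WT at 23C above pft1-1 at 16C, by 1.05, and pft1-1 above WT at 16C, by 0.42. For ATG8C and APG8H they were pft1-1 at 23C above WT at 16C, by 0.44 and 0.27. All other neighbours differed by less than the larger SD.

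The comparison of pft1-1 with WT asked whether the mutant differs in these genes at each temperature. At 23C all 10 members averaged higher in pft1-1, with a median log2 difference of 0.41 and a range from 0.10 to 0.66. Over all probe sets the median was 0.01, and 57.1% were positive. The members were measured on the same arrays and mostly varied together within groups. Their 10 signs are therefore not independent observations, in this or any other comparison. None of the 10 passed in limma, beside 0.022% of all probe sets, and 3 had an unadjusted p under 0.05, beside 7.6%.

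These 3 were ATG8C at 0.53 (SE 0.18, limma adjusted p = 0.526), ATG8G at 0.49 (SE 0.17, limma adjusted p = 0.568) and APG8H at 0.34 (SE 0.15, limma adjusted p = 0.644). In each of them the 3 pft1-1 arrays at 23C lay above the 3 WT arrays, and 7.95% of all probe sets had groups that did not overlap. For ATG8G the values were 5.99, 5.66 and 6.02 in pft1-1 and 5.60, 5.29 and 5.32 in WT. The largest means differed for ATG8E, by 0.66 (SE 0.45), and ATG8B, by 0.63 (SE 0.37), where the groups overlapped. Within letter A the differences of ATG8B and ATG8E were -0.02 and -0.08, so their means came from letters B and C. Without letter C the difference of ATG8H was -0.08, and the other 9 members were positive. The 3' minus 5' control difference was higher in pft1-1 by 0.19 at 23C, and its part was not tested.

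At 16C no member differed between the genotypes past the threshold. The members had a median difference of -0.10, with 2 positive and 8 negative, beside -0.01 and 40.4% positive over all probe sets. None passed in limma, beside 0.0352% of all probe sets, 0 had an unadjusted p under 0.05, beside 4.62%, and 0 had groups that did not overlap, beside 12.8%. The 2 positive genes were ATG8B at 0.42 (95% interval -0.41 to 1.26), with 0.60, 0.44 and 0.23 in letters A, B and C, and ATG8G at 0.21 (95% interval -0.18 to 0.60). The lowest was ATG8E at -0.38 (95% interval -1.40 to 0.65). Most of the negative signs rested on letter C: without it 7 of the 8 negative members were positive, and ATG8D, at -0.10, was not. The 3' minus 5' control difference, pft1-1 minus WT, was -0.20 at 16C, and its part was not tested. Averaged over both temperatures 0 of 10 members passed in limma, beside 0.0572% of all probe sets, and ATG8G at 0.35 (SE 0.12, limma adjusted p = 0.666) was the only one with an unadjusted p under 0.05, beside 6.24%.

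**Figure D4:**
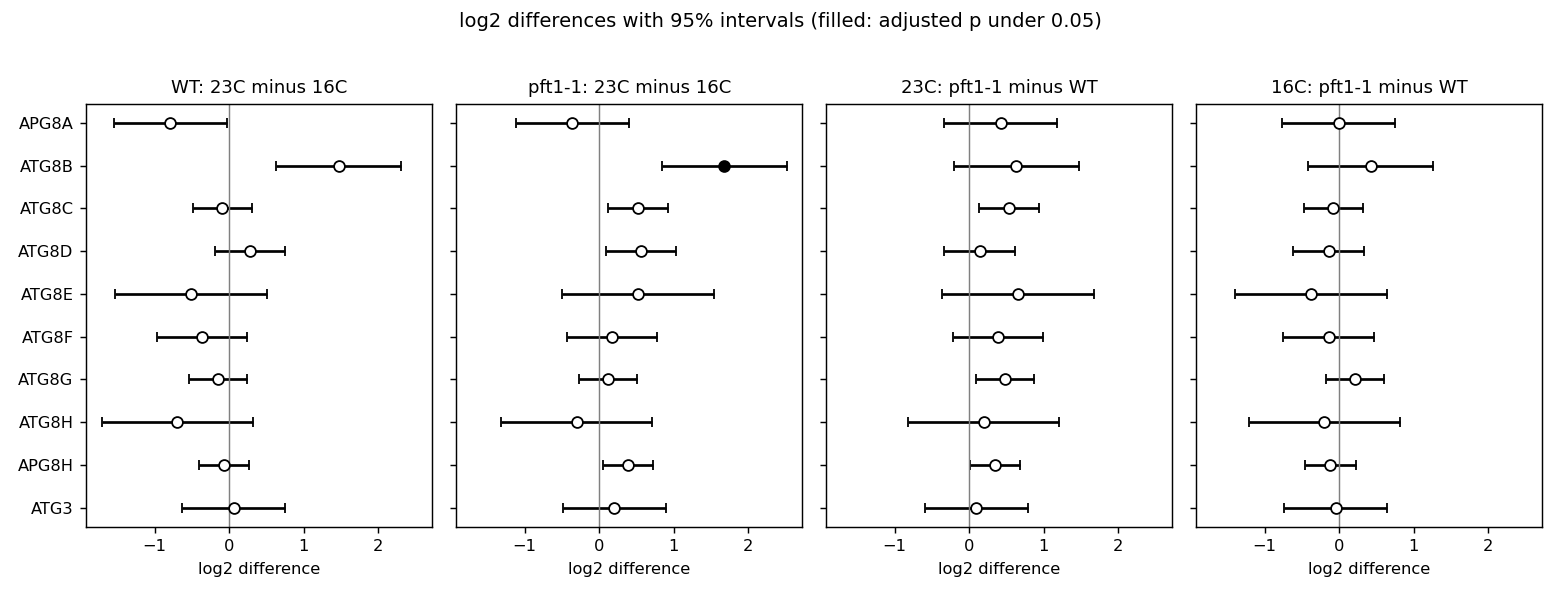
Log2 differences (horizontal axis) of the 10 genes (vertical axis) with 95% intervals from limma, for temperature in WT and pft1-1 and for genotype at 23C and 16C. The filled point is ATG8B in pft1-1, at 1.68, and at 23C all 10 points for pft1-1 minus WT lie above 0 with adjusted p of 0.526 or more. The genes share these arrays, so the 10 signs are not independent.

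The interaction tested whether the temperature difference itself depends on the genotype. It was positive for all 10 members, from 0.14 to 1.03 with a median of 0.41, beside a median of 0.02 and 57.4% positive over all probe sets. None of the 10 passed in limma (adjusted p from 0.861 to 0.972), beside 0.0% of all probe sets, and 1 had an unadjusted p under 0.05, beside 5.54%. That member was ATG8C at 0.61 (SE 0.25), with 0.48, 0.57 and 0.78 in letters A, B and C. The highest was ATG8E at 1.03 (SE 0.64), with 0.65, 0.34 and 2.11 in the letters. For ATG8B, the gene that rose with temperature in pft1-1, it was 0.21 (95% interval -0.97 to 1.39), so no difference between the genotypes was shown for its temperature response. Without letter C ATG8B (-0.25), ATG8G (-0.06) and ATG8H (-0.20) were negative. The 3' minus 5' control difference between temperatures was 0.35 in pft1-1 and -0.04 in WT, and its part in the interaction was not tested. The 4 comparisons share arrays with each other and with the interaction, so their signs are not independent. Nor are the signs of the 10 members within a comparison, as said above.

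Between members, log2 values over the 12 arrays were mostly positively correlated. Of 45 pairs 43 had a positive Pearson r, with a median of 0.48. The highest was 0.84, between APG8A and ATG8H, followed by ATG8E with ATG8F at 0.80, ATG8E with APG8H at 0.79, and APG8H with ATG8C at 0.78. ATG3 was closest to ATG8D, at 0.76. The negative pairs were ATG8B with APG8A, at -0.45, and ATG8B with ATG8H, at -0.21. After the group means were subtracted the median over the pairs was 0.57, with 40 positive. These are descriptions over 12 arrays that share group, letter and array quality, and the paralogous transcripts are similar in sequence, so binding of one by probes of another was not tested.

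**Figure D5:**
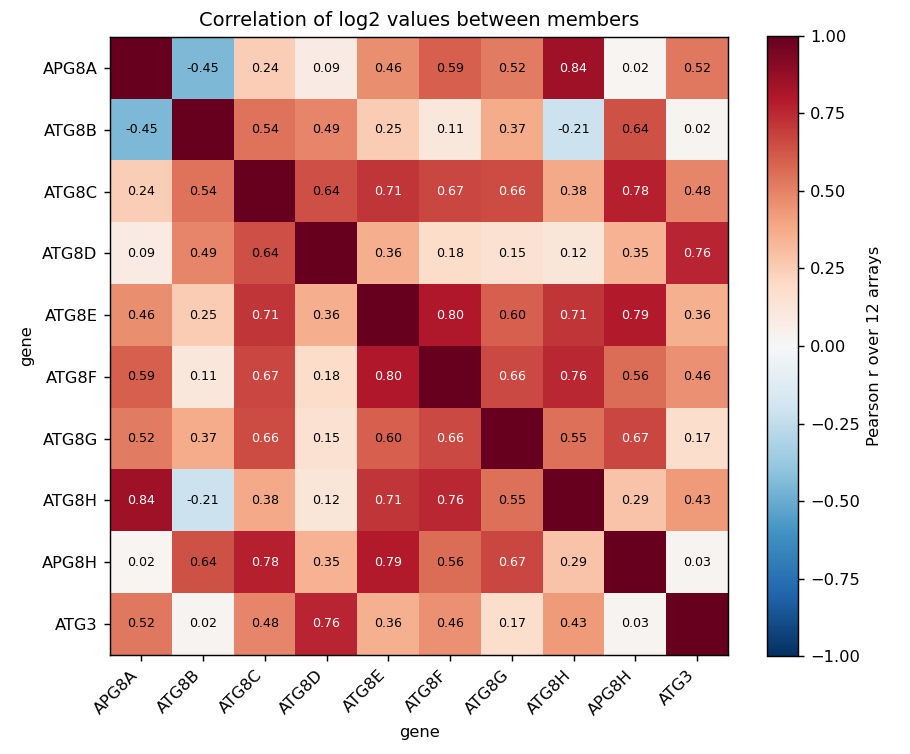
Pearson correlation (colour and printed value) of log2 values over 12 arrays between the 10 genes on both axes. The row of ATG8B holds the 2 negative values, with APG8A at -0.45 and ATG8H at -0.21.

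Among the 13503 other probe sets with 1 gene, the patterns most like that of ATG8B over the 12 arrays were those of AT1G03290 (Pearson r = 0.976), CYP71B24 (r = 0.974) and AT5G22850 (r = 0.971). CYP71B24, a cytochrome P450 gene, averaged 3.19 and 5.06 at 16C and 23C in WT and 3.67 and 5.64 in pft1-1. AT1G03290 averaged 5.85 and 6.47 in WT and 5.97 and 7.03 in pft1-1, and AT5G22850 averaged 6.34 and 6.78 in WT and 6.34 and 6.98 in pft1-1. These genes were chosen for their likeness to ATG8B on the same arrays, so the choice fixes their higher means at 23C.

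In the gene table of the TAIR10.1 assembly ATG8E lies beside HAM1 and ATG8G beside HAM2, a pair of related GRAS transcription factor genes. Of the 20 protein-coding neighbours of the members, 8 had a probe set of their own, and 3 of the 8 were called for temperature in at least 1 comparison. In pft1-1 2 of the 8 passed, beside 17.7% of all probe sets, and averaged over genotypes 3 of the 8 passed, beside 23.7%. AT4G04630, next to ATG8B, stood at 3.29, 3.57 and 3.04 at 16C and 6.54, 5.99 and 6.07 at 23C in pft1-1, and rose by 2.90 (SE 0.44, limma adjusted p = 0.00350). In WT it stood at 3.95, 4.45 and 2.91 at 16C and 5.31, 4.78 and 3.84 at 23C, a difference of 0.87 (SE 0.44, limma adjusted p = 0.346). Its temperature difference was thus positive in both genotypes, as was that of ATG8B. AT1G62030, next to ATG8C, rose by 1.79 (SE 0.32, limma adjusted p = 0.00660) in pft1-1 and had 1.05 (SE 0.32, limma adjusted p = 0.106) in WT. AT3G15570, next to APG8H, went the other way and fell by 0.61 (SE 0.19, limma adjusted p = 0.0450) averaged over genotypes, with -0.71 (SE 0.27, limma adjusted p = 0.190) in WT and -0.52 (SE 0.27, limma adjusted p = 0.219) in pft1-1. None of the 3 neighbours had a call between the genotypes or in the interaction. These neighbours were singled out after their values were seen.

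The rest of the autophagy pathway was followed through 6 lists of 48 loci: the initiation kinase complex, membrane delivery, the lipid kinase complex, the other conjugation enzymes, receptors and fusion factors, and upstream kinases. Of these loci 14 had a probe set, 16 probe sets in all, and the gene table names 3 of the 14. For temperature 0 of the 16 passed in WT, beside 4.89% of all probe sets, with a median difference of 0.12 and 10 positive, beside 63.7%. In pft1-1 3 of 16 rose, beside 8.41% of all probe sets upward and 17.7% in either direction, with a median of 0.26 and 15 positive, beside 62.9%. Between genotypes at 23C 0 of 16 passed, beside 0.022%, with a median of 0.21 and 12 positive, beside 57.1%. At 16C 0 of 16 passed, beside 0.0352%, with a median of -0.01 and 6 positive, beside 40.4%. In the interaction 0 of 16 passed, beside 0.0%, with a median of 0.29 and 13 positive, beside 57.4%.

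The 3 probe sets that rose in pft1-1 belonged to RAPTOR1, AKINBETA1 and AT3G59950, a locus without a name in the gene table. RAPTOR1, the partner protein of the TOR kinase, which restrains autophagy, stood at 5.10, 5.56 and 6.18 at 16C and 6.82, 6.55 and 6.44 at 23C in pft1-1. It rose by 0.99 (SE 0.24, limma adjusted p = 0.0206), and in WT its difference was 0.63 (SE 0.24, limma adjusted p = 0.184). AKINBETA1, a regulatory subunit of the energy-sensing SnRK1 kinase, stood at 6.75, 7.54 and 6.93 at 16C and 9.19, 8.52 and 10.09 at 23C in pft1-1. It rose by 2.19 (SE 0.58, limma adjusted p = 0.0308), with 0.43 (SE 0.58, limma adjusted p = 0.820) in WT. AT3G59950 rose by 0.74 (SE 0.10, limma adjusted p = 0.00248) in pft1-1, from 6.50 ± 0.03 to 7.24 ± 0.22 (SD, n = 3 each), with 0.29 (SE 0.10, limma adjusted p = 0.167) in WT. The interaction was not called for any of them. The 3' minus 5' control difference of 0.35 between temperatures in pft1-1, mainly from letter C, applies to these values too.

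Of the unnamed loci with the larger temperature differences on each list, AT3G43230 had 0.63 (SE 0.23, limma adjusted p = 0.0922) and AT5G50230 had 0.58 (SE 0.21, limma adjusted p = 0.0933) in pft1-1. AT1G49180, AT2G37840, AT2G32760, AT1G77890 and AT4G34660 had differences with limma adjusted p of 0.464 or more in both genotypes. AT1G77890 (2.59 to 2.70 and 2.15 to 3.38 on its probe sets) and AT1G49180 (2.55 to 4.54) had values near the lower quartile of 2.52. The probe sets of AT2G37840 gave -0.34 and -0.01 in WT and 0.25 and 0.01 in pft1-1. ATG101, the other named autophagy gene on the lists and a part of the initiation kinase complex, had differences of -0.17 (SE 0.28) in WT and 0.35 (SE 0.28) in pft1-1. Of the 10 listed genes of senescence and sugar starvation 2 had a probe set, SAG101 and WRKY53, and 0 were called in any comparison in limma. SAG101, an acyl hydrolase gene linked to leaf senescence, had 0.38 (SE 0.15) in WT and 0.09 (SE 0.15) in pft1-1. WRKY53, a senescence transcription factor gene, stood at 2.25 to 2.98 on all arrays, near the lower quartile.

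Both measured root genes had a lower mean at 23C, and 1 of the 2 passed in pft1-1, beside 17.7% of all probe sets. PYK10, a root beta-glucosidase gene, fell by 0.93 (SE 0.26, limma adjusted p = 0.0398) in pft1-1, from 12.8 to 11.8, and had -0.58 (SE 0.26, limma adjusted p = 0.285) in WT. EXPA7, a root hair expansin gene, stood at 5.42, 2.04 and 2.34 at 16C and 2.03, 2.04 and 2.01 at 23C in WT, and at 5.07, 4.65 and 2.24 at 16C and 2.25, 2.34 and 2.05 at 23C in pft1-1. It was above 4 on 3 of the 6 arrays at 16C and on 0 of 6 at 23C, and it was not called in any comparison. In whole seedlings fewer cells of a type and less RNA per cell cannot be told apart, and the part of tissue make-up in the ATG8B difference was not tested.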

How the data were processed

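The authors deposited log2 expression values, 1 for each probe set on each array. Per the submitters' processing notes they used RMA, which normalises between arrays, and affy, and no version is given. Per the labels' protocols, biotin-labelled RNA was prepared from 5 ug of total RNA. Hybridisation batches and the genome build were not given in the sources used. Of 22810 probe sets, 64 controls were set aside and 22746 were tested without a filter. Of these 13513 carried 1 gene, 503 several and 8730 none. All 10 members were matched to the gene table by Entrez identifier.

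The 4 group means were estimated per probe set from all 12 arrays with lmFit and eBayes (limma 3.58.1, R 4.3.3), 8 residual and 1.05 prior degrees of freedom. P-values were adjusted over the 22746 probe sets (Benjamini-Hochberg), and an adjusted value under 0.05 is a call. SE and 95% intervals are moderated. The number of arrays limits the precision. The members and lists were chosen with earlier results of these data known. All members were named. From each list, called genes and the 3 with the largest temperature differences were named. Likeness took the 3 highest correlations for each called member.

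Sample titles give the letters, and each RNA was prepared independently. Deviations from group means of arrays sharing a letter correlated above 0.1 in all 3 letters for temperature in WT (0.421, 0.274 and 0.529) and pft1-1 (0.200, 0.196 and 0.339) and for genotype at 23C (0.129, 0.473 and 0.158), but not at 16C (0.357, -0.101 and 0.474). P-values set a difference against the moderated spread between these replicates, pooled over all groups. Without the block this spread includes shifts between letters. The procedure was tested on simulated data. No 2 arrays were identical (0 pairs). Plots were drawn with matplotlib 3.10.9 under Python 3.11.15.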

Additional observations from a re-analysis of the deposited data

Results flagged for a closer look

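Temperature differences of APG8H had opposite signs in the 2 genotypes in each replicate letter. At 23C minus 16C it averaged -0.071 in WT, with -0.02, -0.11 and -0.08 in letters A, B and C, and 0.39 in pft1-1, with 0.23, 0.10 and 0.83. The interaction, which tests this difference over all arrays, was 0.46 (SE 0.21) and did not pass (limma adjusted p = 0.905), and the agreement of the letters was not tested further. Leaving out a single array moved the WT difference to between -0.16 and 0.04.

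ATG8D was lower in pft1-1 at 16C and higher at 23C in each letter. Its pft1-1 minus WT difference averaged -0.14 at 16C, with -0.19, -0.01 and -0.21 in letters A, B and C, and 0.14 at 23C, with 0.16, 0.06 and 0.20. The interaction was 0.28 (SE 0.30, limma adjusted p = 0.947). The letters do not pair arrays by the correlation check at 16C, so these differences by letter depend on how arrays are matched, and the opposite signs were not tested beyond the interaction.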

How the results depend on the processing

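The alternatives were centring each array on its median, renewed quantile normalisation, the replicate letter as a replicate block, letters A and B alone, a variance trend with intensity, only the arrays compared, testing only 60% of probe sets (the upper by mean) or a single probe set per gene, and omission of each array in turn. Of 1370 member differences under an alternative, 1280 kept their sign and their side of the threshold, 74 changed sign, 13 gained a call and 3 lost one. Many of these differences could not change sign. The block, the trend, only the arrays compared, the choices of probe sets and omission of an array outside a comparison leave the difference as it was. There only the SE and the adjusted p can move, so the count of unchanged signs is no measure of robustness. The average ATG8B difference kept its call in all 19 of its alternatives (1.38 to 1.73, adjusted p 0.0006 to 0.0262), the pft1-1 difference in 17 of 20 (1.28 to 1.99, adjusted p 0.0048 to 0.0968), and the WT difference (1.24 to 1.74, adjusted p 0.0189 to 0.193) was called in 4 of 20. The cause of each change below was not tested. Arrays limit the precision by their number, and with an array left out a group of 2 is assumed to vary like the others.

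The number of probe sets called for temperature in WT, 1112 as reported, was 1859 with the replicate block, 481 in letters A and B alone, 348 with only the arrays compared, and 381 (without WT at 16C replicate B) to 1352 with an array left out. For temperature in pft1-1, 4023 as reported, it was 2334 in letters A and B alone and 2483 (without pft1-1 at 23C replicate A) to 4467 with an array left out. For genotype at 23C, 5 as reported, it was 2 in letters A and B alone, 0 with only the arrays compared, 13 in the upper 60%, 9 centred, 8 with the trend and 2 to 54 with an array left out. For genotype at 16C, 8 as reported, it was 5 with the replicate block, 1 in letters A and B alone, 0 with only the arrays compared, 14 centred, 15 with the trend and 3 to 42 with an array left out. The interaction, 0 as reported in limma with 1259 at an unadjusted p under 0.05, gave 0 to 6 with an array left out. For genotype averaged over temperatures, 13 as reported, it was 1 in letters A and B alone, 8 with renewed quantile normalisation and 3 to 22 with an array left out.

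Of the 10 members, 0 were called for temperature in WT, 2 with the replicate block, 1 in the upper 60% and 0 to 1 with an array left out. In pft1-1 1 was called, 3 with the replicate block, 0 with only the arrays compared, 2 centred and 0 to 1 with an array left out. Averaged over genotypes 1 was called, 3 with the replicate block, 2 in letters A and B alone and 2 centred. Centring moved every temperature difference up by 0.07 in WT, 0.10 in pft1-1 and 0.09 on average. The calls then split 579 up and 672 down in WT (395 and 717 as reported), 2650 and 1948 in pft1-1 (1914 and 2109) and 3881 and 2482 on average (2662 and 2731).

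In letters A and B alone the sign changed for temperature in pft1-1 of ATG8E (-0.076) and ATG8G (-0.065), for genotype at 23C of ATG8H (-0.083), and for genotype at 16C of APG8A (0.18), APG8H (0.075), ATG3 (0.00039), ATG8C (0.044), ATG8E (0.0035), ATG8F (0.088) and ATG8H (0.12). It also changed for the interaction of ATG8B (-0.25), ATG8G (-0.057) and ATG8H (-0.20), for genotype on average of ATG8H (0.017) and for temperature on average of ATG8E (-0.32). With renewed quantile normalisation it changed for genotype on average of ATG8D (-0.0017) and for temperature on average of ATG8E (-0.029) and ATG8G (0.014). Centred, it changed for genotype on average of ATG8H (0.0037) and for temperature on average of ATG8G (0.072).

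With an array left out, temperature differences in WT ran from -0.16 to 0.040 for APG8H, -0.13 to 0.27 for ATG3 and -0.22 to 0.056 for ATG8C, and in pft1-1 from -0.0047 to 0.46 for ATG3 and -0.0017 to 0.28 for ATG8G. Genotype differences at 23C ran from -0.11 to 0.35 for ATG3 and -0.0044 to 0.59 for ATG8H. At 16C they ran from -0.21 to 0.27 for APG8A, -0.21 to 0.16 for ATG3, -0.17 to 0.083 for ATG8C, -0.31 to 0.071 for ATG8D, -0.66 to 0.017 for ATG8E and -0.48 to 0.18 for ATG8H. The interaction ran from -0.068 to 0.40 for ATG3 and -0.19 to 0.52 for ATG8B. Genotype on average ran from -0.078 to 0.15 for ATG3, -0.086 to 0.11 for ATG8D, -0.037 to 0.34 for ATG8E and -0.14 to 0.19 for ATG8H. Temperature on average ran from -0.19 to 0.18 for ATG8E, -0.26 to 0.022 for ATG8F and -0.076 to 0.063 for ATG8G.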
